A study of Mus musculus with 6 samples.

Results

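The genes described here are the nuclear-encoded subunits of oxidative phosphorylation, the set of protein complexes with which mitochondria turn the energy of nutrients into ATP. They were taken from the table of gene counts by symbol: every row that begins with Ndufa, Ndufb, Ndufc, Ndufs, Ndufv, Uqcr, Cox4i, Cox5, Cox6, Cox7, Cox8 or Atp5, followed only by letters or digits, and the 4 rows Sdha, Sdhb, Sdhc and Sdhd. This gave 86 of the 14416 genes in the table, of which 35 belong to complex I, 4 to complex II, 8 to complex III, 17 to complex IV and 15 to complex V. The symbol rule also takes 4 complex I assembly factors (Ndufaf1 to Ndufaf4) and 3 associated proteins (Atp5s, Atp5sl and Cox7a2l), so 79 of the 86 are structural subunits. Ndufa4 and Ndufa4l2 were placed in complex IV, where the Ndufa4 protein is known to sit. No row of the table had a symbol that begins with mt-, the prefix of mitochondrially encoded genes. The subunits that the mitochondrial genome itself encodes were therefore not analysed here.

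Transcripts were measured by Smart-seq2 RNA-seq, a full-length cDNA method for small amounts of RNA, in innate lymphoid cells (ILCs) sorted from mouse lung as Lin-Thy1.2+ cells. ILCs are lymphocytes that lack rearranged antigen receptors. The first group was WT, 3 samples from C57BL/6J mice, and the second was RBM3KO, 3 samples from C57BL/6J mice labelled as knocked out for Rbm3, which encodes a cold-inducible RNA-binding protein. Mice of both genotypes had been challenged 3 times over 7 days with 25 µg of Alternaria alternata, a mould that causes allergic airway inflammation, so an unchallenged level was not part of the comparison. The title of the series asks whether RBM3 holds back ILCs and lung inflammation. The labels do not give the age or sex of the mice, how the Rbm3 allele was made, whether it was lost in all cells, or whether replicates came from separate animals.

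In the respiratory chain, complexes I and II take electrons from NADH and succinate and pass them through ubiquinone to complex III, from which cytochrome c carries them to complex IV and oxygen. Complexes I, III and IV pump protons while doing so, and complex V, the ATP synthase, lets the protons flow back and makes ATP. Resting lymphocytes draw much of their ATP from this pathway, and dividing lymphocytes combine it with glycolysis. Nuclear transcription of its genes is known to involve the factors NRF1, GABP (an ETS factor) and YY1, and the coactivators of the PGC-1 family.

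Promoter sequence is shown first for 2 families in which several genes supply the same position of a complex. Genes for like proteins can thus be set side by side with the sequence before a start. The 3 Atp5g genes encode the c subunit that forms the rotating ring of ATP synthase, and the mature protein is the same for all 3. Cox7a1 and Cox7a2 encode the muscle-type and the widely expressed isoform of 1 small subunit of complex IV. Each sequence is the 250 bases before a start of the gene, read 5′ to 3′ on the gene's strand, from RefSeq, build GRCm38.p6. The first start listed for each gene was used. For Atp5g2 the stretch lies inside the gene model of the GENCODE annotation (chr15:102662864-102672352, minus strand). It is therefore not upstream of that whole gene, and the comparison of the Atp5g stretches depends on the start used. The stretches of Atp5g1, Cox7a1 and Cox7a2 also reach into their GENCODE gene models with their last bases, and that of Atp5g3 does not. Capitals mark matches, on either strand, to the CCAAT box (CCAAT) or to a core of the NRF1 motif (GCATGCGC).
Atp5g1, chr11:96075632-96075881, minus strand: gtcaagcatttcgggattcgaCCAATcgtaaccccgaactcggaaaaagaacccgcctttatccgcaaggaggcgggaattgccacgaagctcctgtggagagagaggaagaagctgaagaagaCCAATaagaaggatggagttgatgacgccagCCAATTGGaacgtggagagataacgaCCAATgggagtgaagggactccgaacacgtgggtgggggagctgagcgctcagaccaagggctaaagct
Atp5g2, chr15:102671048-102671297, minus strand: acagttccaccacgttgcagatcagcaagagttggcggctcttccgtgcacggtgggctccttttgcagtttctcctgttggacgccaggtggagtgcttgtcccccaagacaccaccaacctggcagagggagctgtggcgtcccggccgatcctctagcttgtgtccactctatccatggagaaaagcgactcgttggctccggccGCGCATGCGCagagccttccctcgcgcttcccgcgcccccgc
Atp5g3, chr2:73911327-73911576, minus strand: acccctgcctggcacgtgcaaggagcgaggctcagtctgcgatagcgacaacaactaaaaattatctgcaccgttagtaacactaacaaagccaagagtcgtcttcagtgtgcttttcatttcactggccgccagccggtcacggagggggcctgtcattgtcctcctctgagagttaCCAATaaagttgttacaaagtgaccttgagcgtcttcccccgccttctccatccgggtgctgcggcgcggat
Cox7a1, chr7:30183921-30184170, plus strand: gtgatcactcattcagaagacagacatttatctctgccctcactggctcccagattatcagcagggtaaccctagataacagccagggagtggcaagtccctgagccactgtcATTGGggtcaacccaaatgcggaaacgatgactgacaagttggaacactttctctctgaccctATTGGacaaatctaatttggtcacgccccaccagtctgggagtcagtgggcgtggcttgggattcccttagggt
Cox7a2, chr9:79759854-79760103, minus strand: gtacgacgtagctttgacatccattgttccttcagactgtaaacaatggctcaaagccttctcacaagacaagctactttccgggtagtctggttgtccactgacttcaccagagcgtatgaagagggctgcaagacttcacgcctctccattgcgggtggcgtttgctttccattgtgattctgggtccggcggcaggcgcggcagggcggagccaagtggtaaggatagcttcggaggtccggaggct
The Atp5g1 stretch holds 5 CCAAT matches, of which a pair on opposite strands overlaps in CCAATTGG, and no NRF1 match. The Atp5g2 stretch holds 2 NRF1 matches, on opposite strands and overlapping in GCGCATGCGC, and no CCAAT match, while the Atp5g3 stretch holds 1 CCAAT match. The Cox7a1 stretch holds 2 CCAAT matches on the minus strand and 4 CpG dinucleotides, against 14 CpG and no match in the Cox7a2 stretch. These matches are descriptions of the letters and do not show that a factor binds there.

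Over windows of 300 bases, which run from 250 before to 50 after the first listed start, 71 of the 86 genes had a RefSeq sequence. Besides the CCAAT box and the NRF1 core, the windows were searched on both strands for an ETS core (CCGGAAG) and a YY1 core (AAGATGGCG). The NRF1 core was present in 11 of the 71 windows (15.5%), in 5.72% of the 9083 windows of all tested genes and in 2.80% of all 27025 windows. A YY1 core was found in 7 of the 71 windows (9.86%), compared with 3.55% of the tested genes and 1.49% of all windows. All 7 matches, in Atp5j2, Atp5sl, Ndufa9, Ndufc1, Ndufs4, Ndufs6 and Ndufs7, were centred 26 to 39 bases after the start. The ETS core stood in 16 windows (22.5%, against 19.7% of the tested genes and 9.12% of all windows) and the CCAAT box in 33 (46.5%, against 39.3% and 37.9%). At least 1 of the NRF1, ETS and YY1 cores was present in 29 of the 71 windows (40.8%), in 26.8% of the tested genes and in 12.5% of all windows. The median GC content was 58.3% in the 71 windows and 61.0% in those of the tested genes.

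**Figure D1:**
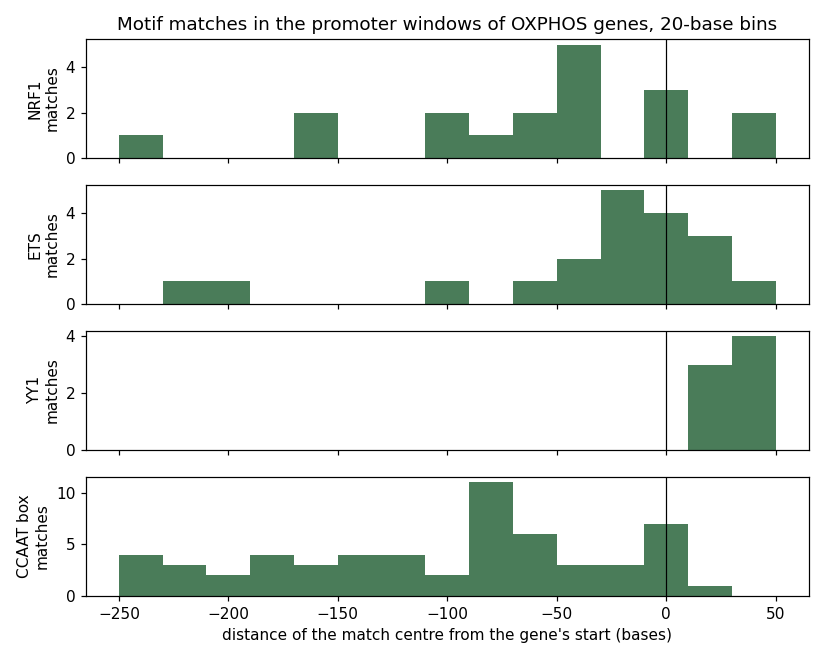
Position of motif matches in the 71 promoter windows of OXPHOS (oxidative phosphorylation) genes, by distance of the match centre from the gene's start in bases (horizontal) and number of matches per 20-base bin (vertical), 1 panel per motif. All 7 YY1 matches lie 26 to 39 bases after the start, whereas CCAAT matches are spread over the window.

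The 6 libraries held between 7498247 (RBM3KO replicate 3) and 25068137 (WT replicate 3) counts. Levels below are CPM, counts scaled to the library total after TMM adjustment of that total, and values are listed in the order of replicates 1, 2 and 3. A count of 0 allows up to 3 counts, or 0.120 to 0.400 CPM depending on the library, for counting error only. Rbm3 itself had 270, 314 and 293 CPM in WT and 26.5, 22.4 and 31.6 CPM in RBM3KO (log2 fold change of -3.45, SE 0.15, adjusted p = 2.2e-06 in edgeR's quasi-likelihood test with Benjamini-Hochberg adjustment), so each library matched its label. The 10 genes used as ILC markers were Thy1, Il7r, Ptprc, Id2, Gata3, Il1rl1, Klrg1, Rora, Il2ra and Icos. Whether each of them marks ILCs alone was not tested, and the marker lists of this paragraph differ in length. All 10 ILC markers were detected, with a summed level of 4351 to 4780 CPM in WT and 5302 to 5788 CPM in RBM3KO. Summed markers of other cells were far lower: 57.5 to 82.9 CPM in WT and 38.6 to 43.7 CPM in RBM3KO for 4 B cell genes, 117 to 251 and 62.6 to 128 CPM for 9 myeloid genes, and 173 to 267 and 194 to 354 CPM for 6 T cell genes. The sums were 122 to 364 and 120 to 180 CPM for 5 NK cell genes, 17.6 to 97.3 and 16.8 to 274 CPM for 6 epithelial genes, 41.6 to 61.4 and 63.0 to 67.2 CPM for 5 genes of stroma and endothelium, and at most 21.7 CPM for granulocytes, mast cells, erythroid cells and platelets. Of the markers, only myeloid Tyrobp passed the test (log2 fold change of -1.34, adjusted p = 0.029 in the same edgeR test). Whether these differences in marker levels come from carried-over cells, or play a part in the OXPHOS values, was not tested. In such bulk samples, fewer cells of a type and less RNA per cell cannot be told apart.

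The comparison of RBM3KO with WT found no OXPHOS gene past the threshold of 0.05 on the adjusted p. The levels of most subunits differed between the genotypes by a few percent, and for 74 of the 83 tested genes the 95% confidence interval lay within a 1.5-fold change in either direction. A filter on low counts had removed Cox4i2, Cox8c and Ndufa4l2, which are described below. The edgeR test called 142 of all 11382 tested genes, or 1.25%, with 28 higher and 114 lower in RBM3KO, and 0 of the 83 OXPHOS genes. At an unadjusted p under 0.05 there were 6 OXPHOS genes (7.23%), all lower in RBM3KO, against 12.3% of all genes. The share of all genes covers both directions, with 782 of the 11382 genes lower and 621 higher in RBM3KO. The lowest adjusted p of an OXPHOS gene was 0.185, for Atp5g1. DESeq2 and limma-voom also called 0 OXPHOS genes.

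As a group the genes lay slightly below WT in RBM3KO. The log2 fold change, RBM3KO minus WT, was below 0 for 57 of the 83 genes (68.7%), with a median of -0.06, where 49.1% of all tested genes lay below 0 and their median was 0.01. Among the 79 genes with a mean of at least 10 CPM, it ran from -0.32 (Ndufv1) to 0.30 (Ndufaf4). The median was -0.06 in complexes I, III and IV, -0.09 in complex II and -0.08 in complex V, and it was 0.15 for the 4 assembly factors. WT replicate 1 held the highest value of 25 of the 79 genes and the lowest of 3, and without it the median over all OXPHOS genes was -0.03 and only 1 gene had an unadjusted p under 0.05. Without WT replicate 1 the complex IV median was -0.02. The complex II median was -0.04 without RBM3KO replicate 1 and -0.05 without WT replicate 2. Without RBM3KO replicate 3 the complex III median was -0.01. The complex V median was -0.14 without WT replicate 3 and -0.04 without WT replicate 1.

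**Figure D2:**
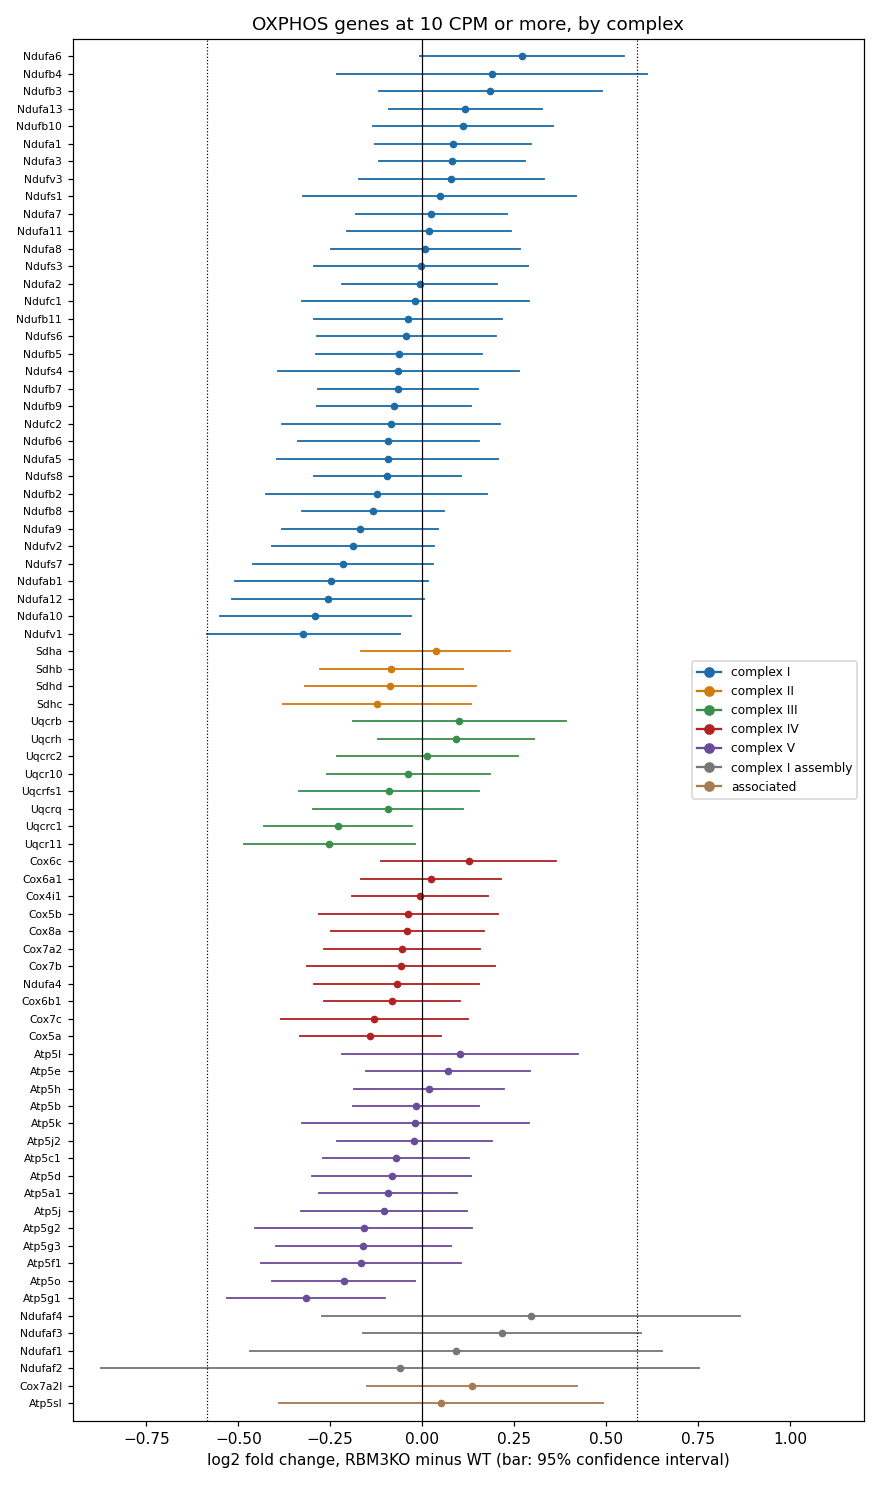
Log2 fold change, RBM3KO minus WT (horizontal), of 78 of the 79 OXPHOS genes with a mean of at least 10 CPM, ordered within each complex; points are edgeR estimates, bars are 95% confidence intervals and dotted lines mark a 1.5-fold change. Points lie between -0.32 and 0.30, and the intervals that cross a dotted line belong to Ndufb4 and Ndufaf1 to Ndufaf4.

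Another way to read the same libraries is to ask for which genes the 3 RBM3KO values and the 3 WT values do not overlap. All 3 RBM3KO libraries lay below all 3 WT libraries for 16 of the 83 genes (19.3%), against 10.5% of all tested genes. Among the 16 were Ndufa9, Ndufa10, Ndufab1, Ndufb8, Ndufs8, Ndufv1 and Ndufv2 in complex I, Uqcr11, Uqcrc1 and Uqcrq in complex III, Cox5a and Cox7a1 in complex IV, and Atp5g1, Atp5g2 and Atp5o in complex V. The opposite order, all RBM3KO above all WT, was seen for Ndufa3, Ndufb4 and Ndufaf4, which is 3.61% of the genes against 8.43% of all. With scaling to the total count in place of TMM, 24 genes (28.9%) lay lower without overlap, against 12.7% of all genes, and 2 (2.41%) lay higher, against 6.6%. Among well expressed genes, with a mean of at least 50 CPM, the numbers were 15 of 74 OXPHOS genes and 499 of 3723 genes for the lower side, and 1 of 74 and 485 of 3723 for the higher side. None of the OXPHOS genes among them passed the adjusted test.

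Summed over all OXPHOS genes, the level was 24736, 23978 and 23631 CPM in WT and 23423, 22647 and 23342 CPM in RBM3KO. That is 24115 ± 565 and 23137 ± 427 CPM (SD, n = 3 per genotype), a difference of -4.05% in which the lowest WT library lay above the highest RBM3KO library. On the scale of the total count, the genes took 2.51%, 2.44% and 2.41% of all counts in WT and 2.27%, 2.24% and 2.31% in RBM3KO, a difference of -7.25%. The sums over complex III were 2742, 2648 and 2712 CPM in WT and 2549, 2534 and 2411 CPM in RBM3KO, the largest relative difference of the 5 complexes (-7.50%). Those over complex I were 7184, 6868 and 7080 CPM in WT and 6845, 6616 and 6819 CPM in RBM3KO (-4.02%). The groups did not overlap in either. Complex V (-4.83%), complex II (-3.25%) and complex IV (-2.28%) overlapped between the genotypes. On the scale of the total count the differences were -7.22% in complex I, -6.42% in complex II, -10.6% in complex III, -5.55% in complex IV and -7.99% in complex V, and complex IV then did not overlap either (lowest WT 4990 CPM, highest RBM3KO 4928 CPM). A sum is weighted to its highest genes, here Uqcrc1 in complex III and Atp5b and Atp5a1 in complex V. With the 79 genes of at least 10 CPM counted equally, the log2 deviation from each gene's mean over the libraries was taken. Its median was 0.055, 0.007 and -0.010 in WT and -0.025, -0.064 and 0.003 in RBM3KO. On that measure the genotypes overlapped, with RBM3KO replicate 3 above WT replicate 3.

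**Figure D3:**
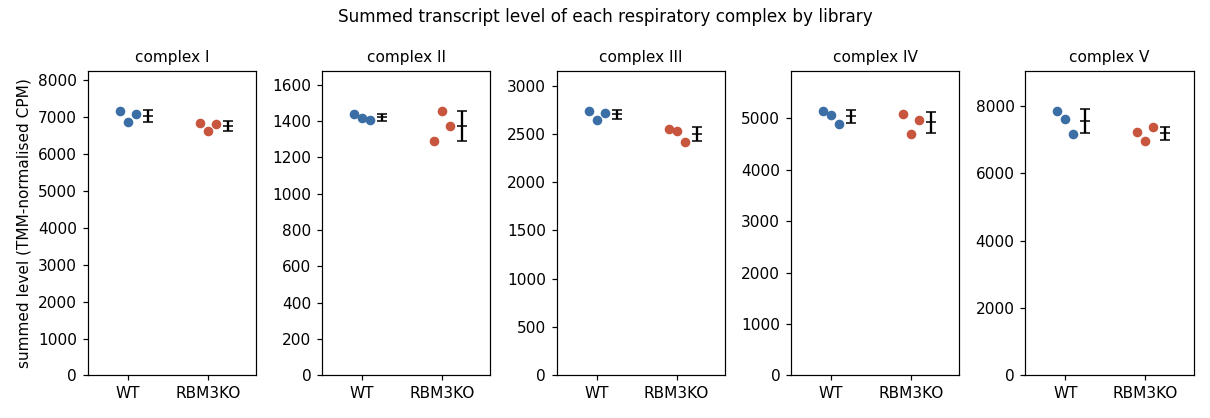
Summed level of the genes of each complex (vertical, TMM-normalised CPM, axes from 0) in the 3 WT and 3 RBM3KO libraries; points are libraries in the order of replicates 1, 2 and 3, and bars show the mean ± SD of each genotype. The RBM3KO libraries lie below all WT libraries in complex I and complex III and overlap with them in complexes II, IV and V on this scale.

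Complex I, the NADH dehydrogenase, had the widest set of genes. Its electron entry point is Ndufv1, which carries the flavin that accepts electrons from NADH. Ndufv1 had 330, 301 and 293 CPM in WT and 221, 231 and 287 CPM in RBM3KO, the most negative estimate of the complex (log2 fold change of -0.32, SE 0.12, adjusted p = 0.275 in edgeR's quasi-likelihood test with Benjamini-Hochberg adjustment). The groups did not overlap, but RBM3KO replicate 3 lay within a few CPM of the lowest WT library. Without that replicate the edgeR estimate was -0.45 with an adjusted p of 0.108, the lowest for any OXPHOS gene under any alternative. Its partner Ndufv2, an iron-sulfur subunit of the same module, read 291, 293 and 319 CPM in WT and 265, 285 and 244 CPM in RBM3KO (log2 fold change of -0.19). Ndufs1, the large iron-sulfur subunit of that module, read 62.5, 63.7 and 64.8 CPM in WT and 55.2, 67.4 and 75.2 CPM in RBM3KO (log2 fold change of 0.05, SE 0.17). WT values of Ndufs1 were close together and lay within the RBM3KO range.

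Accessory subunits of complex I surround its catalytic core and support its assembly and stability. Ndufb8, an accessory subunit of the membrane arm, read 420, 428 and 463 CPM in WT and 400, 391 and 405 CPM in RBM3KO (log2 fold change of -0.13, SE 0.09). Ndufa10, an accessory subunit at the base of the membrane arm, read 222, 209 and 247 CPM in WT and 166, 183 and 206 CPM in RBM3KO (log2 fold change of -0.29, SE 0.12, adjusted p = 0.339 in edgeR). Ndufab1, the mitochondrial acyl carrier protein, which also serves fatty acid synthesis, read 125, 114 and 123 CPM in WT and 104, 103 and 97.8 CPM in RBM3KO (log2 fold change of -0.25). Ndufa10 and Ndufab1 were thus lower in every RBM3KO library than in every WT library, but neither passed the adjusted test. Their unadjusted p in edgeR was 0.031 for Ndufa10 and 0.063 for Ndufab1.

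The most positive estimate of complex I was that of Ndufa6, a small LYR-motif subunit that binds the acyl carrier protein. Its values were 139, 132 and 127 CPM in WT and 168, 137 and 176 CPM in RBM3KO (log2 fold change of 0.27, SE 0.13, adjusted p = 0.416 in edgeR). RBM3KO replicate 2 lay inside the WT range and the other two above it. The iron-sulfur subunits Ndufs7 and Ndufs8, next to the ubiquinone site, had log2 fold changes of -0.22 and -0.10. Of the 35 genes, 23 lay below 0 and 12 above, and the interval of 34 lay within a 1.5-fold change, the exception being Ndufb4 (0.19, SE 0.19). The 4 assembly factors, which build the complex and are not part of it, were at lower levels, where counting error is larger. Ndufaf4 read 17.1, 19.8 and 18.9 CPM in WT and 23.0, 21.8 and 23.7 CPM in RBM3KO (log2 fold change of 0.30, SE 0.26), and for none of the 4 did the interval lie within a 1.5-fold change.

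Complex II, succinate dehydrogenase, is the only respiratory complex that is also an enzyme of the tricarboxylic acid cycle. Sdha, its flavoprotein, read 473, 451 and 481 CPM in WT and 455, 522 and 463 CPM in RBM3KO (log2 fold change of 0.04, SE 0.09). Sdhb, its iron-sulfur subunit, read 574, 542 and 522 CPM in WT and 483, 533 and 529 CPM in RBM3KO (log2 fold change of -0.08, SE 0.09). The membrane anchors Sdhc and Sdhd had log2 fold changes of -0.12 and -0.09. Values of the genotypes overlapped for all 4 genes, and all 4 intervals lay within a 1.5-fold change.

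In complex III, the cytochrome bc1 complex, Uqcrc1, Uqcr11 and Uqcrq were lower without overlap and the other 5 genes overlapped. Uqcrc1, a core subunit on the matrix side and the highest of the complex in CPM, read 995, 933 and 995 CPM in WT and 869, 882 and 742 CPM in RBM3KO (log2 fold change of -0.23, SE 0.09, adjusted p = 0.329 in edgeR). RBM3KO replicate 3 was the lowest, and without it the estimate was -0.15. Uqcr11, one of the smallest subunits, read 359, 286 and 326 CPM in WT and 278, 272 and 265 CPM in RBM3KO (log2 fold change of -0.25, SE 0.11, adjusted p = 0.358 in edgeR), again with no overlap. The partner core subunit Uqcrc2 read 244, 259 and 239 CPM in WT and 219, 280 and 249 CPM in RBM3KO (log2 fold change of 0.01), with full overlap. Uqcrfs1, the Rieske iron-sulfur protein that hands electrons on to cytochrome c1, had a log2 fold change of -0.09 and overlapped as well. Uqcrh, the hinge protein next to cytochrome c1, and Uqcrb stood at 0.09 and 0.10. The exons of Uqcrc2 overlap those of Pdzd9 on the other strand by 504 bases, and the library method does not mark strand, so reads from the overlapping stretch cannot be told apart.

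Complex IV, cytochrome c oxidase, reduces oxygen to water, and its 11 genes of at least 10 CPM had log2 fold changes between -0.14 and 0.13. Cox4i1, a nuclear subunit that takes part in regulating the enzyme, read 1312, 1424 and 1290 CPM in WT and 1442, 1292 and 1275 CPM in RBM3KO (log2 fold change of -0.01, SE 0.08, adjusted p = 0.991 in edgeR). The genotypes overlapped almost completely, and the interval ran from -0.19 to 0.18. Cox5a read 453, 471 and 425 CPM in WT and 419, 407 and 398 CPM in RBM3KO, the most negative estimate among the 11 genes of at least 10 CPM (log2 fold change of -0.14, adjusted p = 0.593 in edgeR), with no overlap. Cox6c had the most positive one (0.13, SE 0.11). Across those 11 genes all intervals lay within a 1.5-fold change.

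Several complex IV subunits exist as isoforms with tissue-specific use, and the widely expressed ones made up nearly all of the transcripts in both genotypes. Cox6a1 read 629, 586 and 582 CPM in WT and 638, 574 and 616 CPM in RBM3KO, whereas the heart and muscle isoform Cox6a2 read 1.18, 2.53 and 0 CPM in WT and 0.65, 0 and 0 CPM in RBM3KO. Cox6a2 was thus low in both, with a 0 in 1 WT and 2 RBM3KO libraries. Its exons also overlap those of Itgad on the other strand. Cox7a2 read 359, 350 and 305 CPM in WT and 326, 332 and 318 CPM in RBM3KO (log2 fold change of -0.05, SE 0.10). The muscle isoform Cox7a1 read 2.88, 3.64 and 2.94 CPM in WT and 1.76, 2.69 and 2.42 CPM in RBM3KO (log2 fold change of -0.46, SE 0.84, adjusted p = 0.911 in edgeR). Cox7a1 did not overlap between the genotypes, but at this level its 95% interval ran from -2.32 to 1.40.

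Cox6b1, which lies near the site where cytochrome c docks, read 504, 519 and 534 CPM in WT and 512, 481 and 478 CPM in RBM3KO (log2 fold change of -0.08). Its testis isoform Cox6b2 read 1.55, 2.82 and 1.33 CPM in WT and 0.85, 1.43 and 2.29 CPM in RBM3KO. The 3 genes removed by the filter were near 0 in all libraries. Cox4i2, the isoform known for its use in lung and under low oxygen, had 3, 1 and 0 counts in WT and 0, 0 and 5 counts in RBM3KO. Cox8c, a testis isoform, had 12 counts in WT replicate 2 and 0 in the other 5 libraries, while the mean of the widely expressed Cox8a was 563 ± 12.9 CPM over the WT libraries and 548 ± 52.1 CPM over the RBM3KO libraries (SD, n = 3 each), a log2 fold change of -0.04. Ndufa4l2, a paralogue of Ndufa4 that low oxygen induces in other cells, had 2 counts in RBM3KO replicate 3 and 0 elsewhere. Ndufa4 itself read 336, 285 and 285 CPM in WT and 296, 277 and 290 CPM in RBM3KO (log2 fold change of -0.07). Cox7a2l was counted here among the associated proteins. It read 185, 209 and 206 CPM in WT and 258, 187 and 214 CPM in RBM3KO (log2 fold change of 0.14). RBM3KO replicate 1 of Cox7a2l was the highest, replicate 3 lay slightly above the WT range and replicate 2 lay inside it.

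Complex V consists of a catalytic head, a stalk and a ring in the membrane. Atp5b, the beta subunit that makes ATP and the most highly counted OXPHOS gene, read 2291, 2287 and 2084 CPM in WT and 2198, 2083 and 2300 CPM in RBM3KO (log2 fold change of -0.02, SE 0.08, adjusted p = 0.968 in edgeR). Its interval ran from -0.19 to 0.15. The alpha subunit Atp5a1 had a log2 fold change of -0.09 (SE 0.09) and overlapped between the genotypes. In the stalk that links the catalytic head to the membrane, Atp5o (OSCP) read 387, 398 and 380 CPM in WT and 349, 336 and 320 CPM in RBM3KO (log2 fold change of -0.21, SE 0.09, adjusted p = 0.351 in edgeR). No RBM3KO library of Atp5o reached a WT library. The symbol covers a second overlapping gene model of the same name, so its count may mix the pair. The most positive estimate was that of Atp5l, a subunit of the dimer interface (0.10, SE 0.15).

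The 3 genes of the c ring, whose promoter sequences are shown above, all had negative estimates. Atp5g1 (chromosome 11, 96068852 to 96075670, mm10) read 219, 206 and 214 CPM in WT and 171, 168 and 175 CPM in RBM3KO. That is 213 ± 6.32 and 171 ± 3.39 CPM (SD, n = 3 each), with a log2 fold change of -0.32 (SE 0.10, 95% interval -0.53 to -0.10, adjusted p = 0.185 in edgeR). Both groups were tight and did not overlap, yet the gene did not pass the adjusted test. Over the alternatives its adjusted p lay between 0.120 and 0.494. Atp5g2 (chromosome 15) read 90.5, 87.6 and 86.7 CPM in WT and 80.1, 74.2 and 82.9 CPM in RBM3KO (log2 fold change of -0.16, SE 0.13), also with no overlap. Atp5g3 (chromosome 2) read 449, 388 and 354 CPM in WT and 366, 332 and 368 CPM in RBM3KO (log2 fold change of -0.16, SE 0.11), with overlap. Whether the 3 changes differ from each other was not tested.

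**Figure D4:**
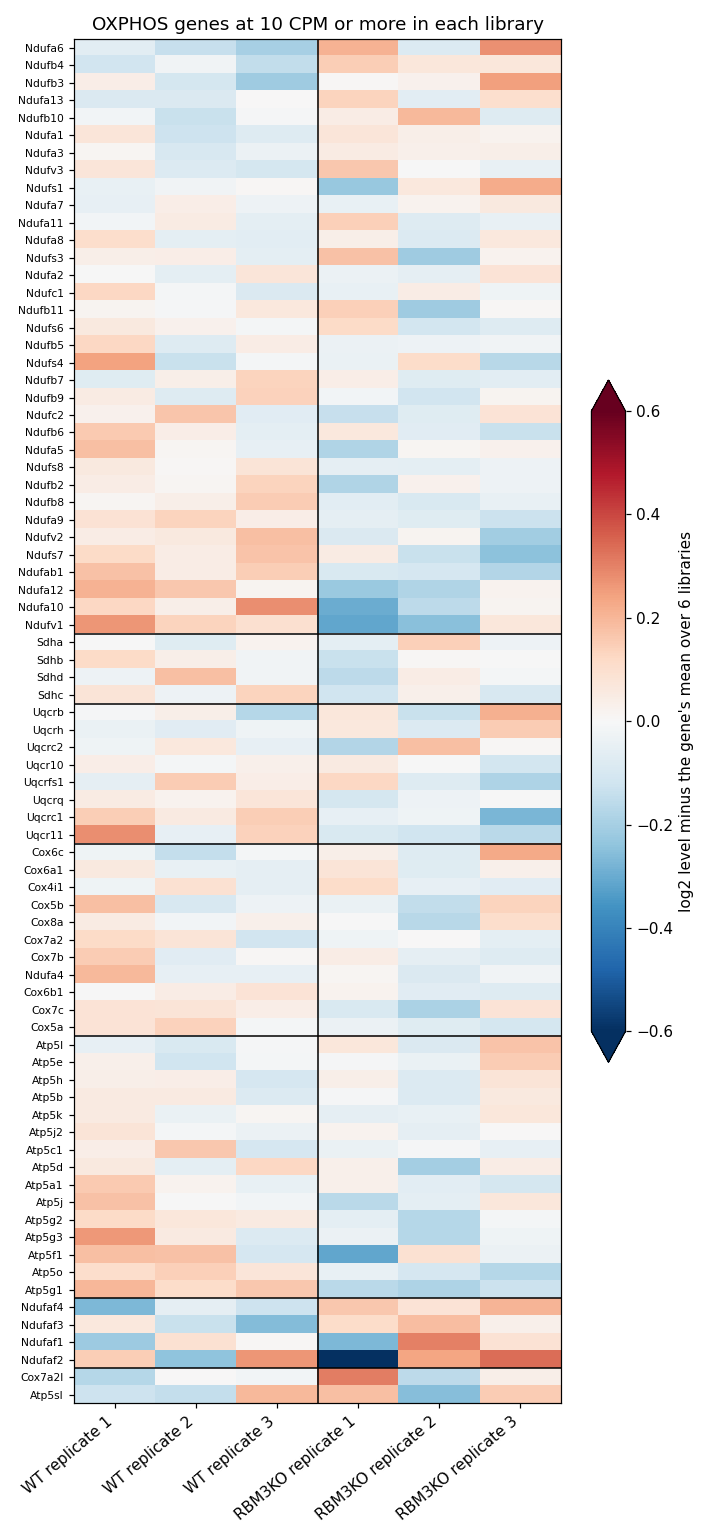
Log2 level of 78 of the 79 OXPHOS genes at 10 CPM or more in each library, minus that gene's mean over the 6 libraries (colour scale, log2 units), with rows grouped by complex and columns by genotype. Atp5g1, Atp5o, Ndufv1 and Ndufa10 are higher in the 3 WT columns than in the 3 RBM3KO columns, and WT replicate 1 holds the highest value of 24 rows.

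Between genes, levels were compared per kilobase of transcript. In complex IV they spanned 1774 ± 97.9 CPM per kilobase (SD over 6 libraries) for Cox4i1 to 139 ± 8.66 for Cox7b, among the 11 genes of at least 10 CPM. Atp5b was highest in complex V (1152 ± 53.7 CPM per kilobase) and Atp5g1 lowest (71.9 ± 8.73). In complex I, Ndufa3 stood at 657 ± 25.4 and Ndufs1 at 24.7 ± 2.49 CPM per kilobase, a 26.6-fold range although the complex holds the same number of copies of both proteins. Complex III ran from Uqcr11 at 668 ± 83.2 to Uqcrc2 at 131 ± 10.7 CPM per kilobase, and complex II from Sdhb at 465 ± 25.9 to Sdhc at 67.2 ± 4.63. The median was 230 CPM per kilobase in complex I, 187 in complex II, 465 in complex III, 641 in complex IV and 432 in complex V. The length used is the median of a gene's annotated coding transcripts, and long alternative transcripts make it uncertain for some genes. It was 2675 bases for Atp5g1 against 586 for Atp5g2 and 718 for Atp5g3, so the place of Atp5g1 in this order depends on the annotation.

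**Figure D5:**
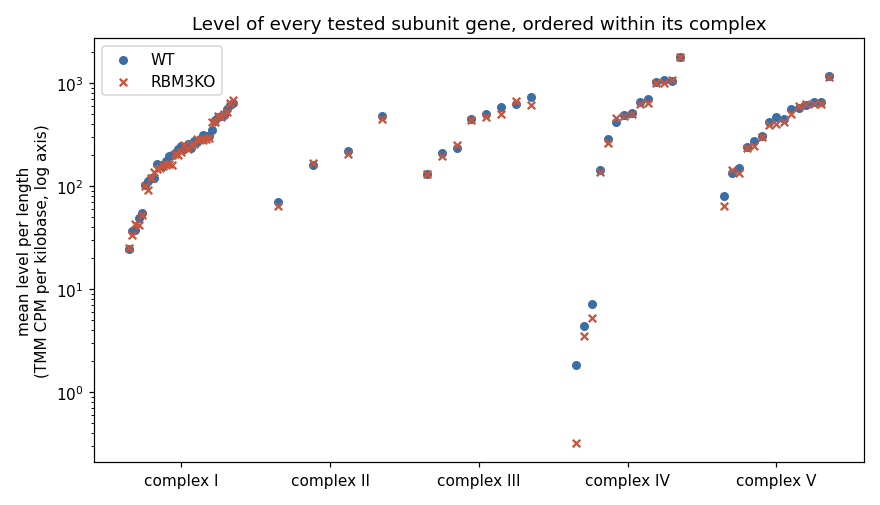
Mean level of every tested subunit gene per kilobase of transcript (vertical, TMM CPM per kilobase, log axis), ordered within its complex (horizontal) with WT as dots and RBM3KO as crosses. The genotypes nearly coincide for most genes, and the 3 low genes of complex IV are Cox6a2, Cox6b2 and Cox7a1.

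OXPHOS genes were also among the more precisely measured genes. Their median coefficient of variation over the 3 replicates was 5.40% in WT and 7.19% in RBM3KO, against 20.3% and 24.2% for all tested genes. Their level was higher as well, with a median of 227 CPM against 23.5 CPM. At 50 CPM and above, the medians were 5.25% and 6.94% for 74 OXPHOS genes and 9.53% and 11.8% for 3723 genes. The level still differed between these sets, with a median of 257 CPM for the OXPHOS genes and 114 CPM for all genes. The median SE of the log2 fold change was 0.11 for the OXPHOS genes and 0.31 for all genes. The interval lay within a 1.5-fold change for 73 of the 74 OXPHOS genes at 50 CPM or more, and for 63.7% of all genes at that level. For those 73 genes, then, a difference of 1.5-fold or more in transcript level lay outside the interval. Separate animals are not stated for the replicates, so the spread behind these intervals may be technical only.

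Other genes that serve the pathway, and cell cycle genes, were examined in 8 lists. In 7 of the 8 no gene passed the edgeR test. Of all tested genes 49.1% lay below 0, with a median of 0.01. Of 15 electron carrier and coenzyme Q genes, 10 lay below 0 (median -0.15). Cyc1, the cytochrome c1 of complex III, read 381, 371 and 403 CPM in WT and 365, 348 and 328 CPM in RBM3KO (log2 fold change of -0.15, adjusted p = 0.580 in edgeR). Of 27 further assembly factors 17 lay below 0 (median -0.09), with Ccdc56, a complex IV assembly factor, at -0.08. Of 13 genes of the tricarboxylic acid cycle 9 lay below 0 (median -0.17), with Mdh2, malate dehydrogenase, at -0.18 (adjusted p = 0.403 in edgeR). The 10 genes of the pyruvate dehydrogenase complex and its regulators had a median of -0.04, with Pdhb at 0.07. Among carriers and porins (8 genes, median -0.10), Ucp2, an uncoupling protein family member that is abundant in lymphocytes, read 1622, 1537 and 1572 CPM in WT and 1937, 1793 and 2224 CPM in RBM3KO (log2 fold change of 0.33, SE 0.09, adjusted p = 0.131 in edgeR). The Ucp2 groups did not overlap and the gene did not pass the test.

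Of 8 regulators of mitochondrial gene transcription in the nucleus, 5 lay below 0 (median -0.10). Nrf1, the factor of the motif counted above, read 99.0, 86.1 and 83.6 CPM in WT and 56.9, 76.9 and 52.8 CPM in RBM3KO (log2 fold change of -0.52, SE 0.18, adjusted p = 0.232 in edgeR). Its groups did not overlap. The 4 genes for transcription of the mitochondrial genome lay below 0 (median -0.36), with Polrmt, the mitochondrial RNA polymerase, at -0.27 (SE 0.21).

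The list with calls was that of cell cycle genes. Of 27 genes 16 were called lower in RBM3KO and 0 higher, all 27 estimates were below 0, and the median was -1.01. Of all 11382 tested genes, 114 were called lower and 49.1% had an estimate below 0. Without WT replicate 1, only 11 of all tested genes were called lower. Ccna2, cyclin A, read 150, 126 and 109 CPM in WT and 42.4, 50.8 and 46.7 CPM in RBM3KO (log2 fold change of -1.46, adjusted p = 0.0041 in edgeR's quasi-likelihood test with Benjamini-Hochberg adjustment). Cdk1, the kinase that drives mitosis, had a log2 fold change of -1.31, Plk1 -1.67 and Ube2c -1.55. These values stand beside OXPHOS medians between -0.09 and -0.06 in the 5 complexes of the same libraries. The part of cell division in the OXPHOS values was not tested.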

How the data were processed

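The values are raw read counts per gene, as the authors deposited them, with a column for each sample. STAR 2.6.1c, Bowtie 1.0.0, featureCounts 1.6.5 and build mm10 are listed in the submitters' processing notes without a role. Per the labels' protocols, the libraries were made by Smart-seq2 with Nextera XT, which marks neither strand nor molecule. Neither strand setting nor annotation is given in the sources used here. The OXPHOS genes and the gene lists were chosen with earlier results of these data known.

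Genes were filtered by edgeR's filterByExpr, scaled by TMM and compared across all 6 libraries by the robust quasi-likelihood fit of edgeR 4.0.16 in R 4.3.3, without covariates, with Benjamini-Hochberg adjustment over all 11382 tested genes and a threshold of 0.05. The SE is the log2 fold change divided by the square root of F. No test was run on lists or sums, and 3 against 3 samples cannot give an exact permutation p below 0.1. Since separate animals are not stated for the replicates, the spread that the p-values measure may be technical only. The fit was tested on simulated counts. No pair of libraries agreed within sampling noise.

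Named genes were, per complex, the 2 highest, the most positive and the most negative at 10 CPM or more, plus isoform families, catalytic subunits, filtered genes and, per list, genes past the threshold or the highest one. Of the 16 cell cycle genes past it, 4 are printed. The values of 1 gene that the rule takes are not reported here. The other OXPHOS genes named were chosen after their values were seen. All 86 OXPHOS genes matched GENCODE M21, which gave lengths and overlaps: exons of 25 overlap another gene's. Alternatives used limma 3.58.1 and DESeq2 1.42.0.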

Additional observations from a re-analysis of the deposited data

How the results depend on the processing

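In 15 alternative settings 0 OXPHOS genes were called, and the lowest adjusted p among them was 0.108. The count of all genes called higher in RBM3KO, 28, was 16 with scaling to the total count, 48 without a filter, 59 with at least 10 CPM in 3 libraries, 52 with limma-voom and 153 with DESeq2, and 1 to 18 when 1 library was left out. The count called lower, 114, was 261 with DESeq2 and 11 to 85 when 1 library was left out. Without WT replicate 1 only 1 higher and 11 lower calls were left. Scaling to the total count gave medians of -0.11 over all OXPHOS genes, -0.11 in complexes I, III and IV and -0.13 in complex V, where the median of all tested genes was -0.04. Leaving out 1 library gave medians of -0.064 to -0.026 over all OXPHOS genes, -0.061 to -0.026 in complex I, -0.12 to -0.036 in complex II, -0.074 to -0.0096 in complex III, -0.092 to -0.025 in complex IV and -0.14 to -0.039 in complex V. All these medians stayed below 0, and of the 36 tested genes named by rule at most 5 changed sign in a setting.

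With the replicate number as a block, 31 genes were called higher and 118 lower, 0 of them OXPHOS genes, and the OXPHOS median was -0.06. Same-numbered libraries correlated at 0.056, 0.057 and 0.005 in their deviations from the group means, so the numbers were not taken as pairs, and WT replicate 3 correlated best with RBM3KO replicate 1 (0.010). The intervals of Ndufb4, Ndufaf1 to Ndufaf4, Cox6a2, Cox6b2, Cox7a1 and Atp5s reach beyond a 1.5-fold change.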

Other observations

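Within the lists of related genes, 4 genes outside the naming rule are given here, chosen after their values were seen. Coq10a, a coenzyme Q binding protein, read 25.1, 27.0 and 32.1 CPM in WT and 7.70, 13.0 and 12.9 CPM in RBM3KO (log2 fold change of -1.33, SE 0.31, adjusted p = 0.078 in edgeR). Its paralogue Coq10b read 48.3, 49.1 and 76.9 CPM in WT and 101, 64.4 and 98.1 CPM in RBM3KO (log2 fold change of 0.59, SE 0.23, adjusted p = 0.323 in edgeR), with overlap. Yy1, whose motif was counted in the promoters, read 28.9, 28.7 and 45.7 CPM in WT and 13.0, 15.3 and 28.5 CPM in RBM3KO (log2 fold change of -0.87, adjusted p = 0.320 in edgeR). Slc25a5, the ADP/ATP carrier of most dividing cells, read 1319, 1291 and 1234 CPM in WT and 1001, 1175 and 1074 CPM in RBM3KO (log2 fold change of -0.24, adjusted p = 0.250 in edgeR). None of these genes passed the threshold.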
